A study of Mus musculus with 2 samples.

Results

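The constant genes of the T cell receptor gamma chain, Tcrg-C1, Tcrg-C2, Tcrg-C3 and Tcrg-C4, were followed in total RNA of G1E cells, a mouse erythroid progenitor line. They are 4 of the 43346 genes quantified in the series, found by their gene identifiers. The family was chosen by the estimated counts of Tcrg-C1, 637 in replicate 2 and 896 in replicate 1, so its levels are a description and are not tested. The series holds 1 group of 2 biological replicates, made from 1 ng each of RNA longer than 200 nucleotides. The line is labelled Gata1-, strain C57BL/6J, male and immortalized, and both libraries came from this 1 line. No treatment is named, and nothing in the labels says whether the replicates were separate cultures, so the spread between them may be technical. ERCC spike-in transcripts are in the libraries.

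The gamma chain pairs with the delta chain to form the antigen receptor of gamma delta T cells. In the mouse each gamma constant gene lies downstream of its own joining segment, and recombination in the thymus brings a variable segment up to a joining segment, after which variable, joining and constant parts are spliced into 1 mRNA. The constant gene encodes the outer constant domain, the connecting peptide next to the membrane, the membrane-spanning part and a short tail. Unrearranged gamma loci can also be transcribed, which yields constant region RNA without a variable segment.

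Tcrg-C1, Tcrg-C2 and Tcrg-C3 have nearly the same coding sequence, so the sequences come first: they show where a read can tell one gene from another. The 120 bases of the first coding exon in which Tcrg-C1 differs most from Tcrg-C2 and Tcrg-C3 are given 5′ to 3′ from GENCODE M21 transcripts on GRCm38, bases 108 to 227 of the exon. Capitals mark, for Tcrg-C1, bases that neither Tcrg-C2 nor Tcrg-C3 has, and, for the others, bases that differ from Tcrg-C1.
Tcrg-C1, chr13:19214210-19214329, plus strand: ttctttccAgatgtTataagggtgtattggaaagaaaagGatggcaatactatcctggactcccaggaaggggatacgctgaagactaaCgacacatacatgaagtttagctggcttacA
Tcrg-C2, chr13:19307325-19307444, minus strand: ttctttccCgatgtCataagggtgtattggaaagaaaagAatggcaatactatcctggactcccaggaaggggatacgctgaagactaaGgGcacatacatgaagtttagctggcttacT
Tcrg-C3, chr13:19260992-19261111, plus strand: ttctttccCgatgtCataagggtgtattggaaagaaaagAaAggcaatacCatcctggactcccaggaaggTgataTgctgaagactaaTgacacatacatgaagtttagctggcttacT
Tcrg-C4, chr13:19344665-19344784, plus strand: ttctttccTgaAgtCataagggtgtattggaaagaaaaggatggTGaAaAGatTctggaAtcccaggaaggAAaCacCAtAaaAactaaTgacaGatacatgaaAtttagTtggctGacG
Over the whole first exon of 330 bases, Tcrg-C2 differed from Tcrg-C1 at 9 positions, Tcrg-C3 at 13 and Tcrg-C4 at 59.

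The exons between the first and the last set the length of the connecting peptide and separate the genes further. They are shown whole because Tcrg-C2 lacks 15 of the bases that Tcrg-C1 and Tcrg-C3 have, and Tcrg-C4 has an exon more.
Tcrg-C1 exon 2, chr13:19215864-19215908, plus strand: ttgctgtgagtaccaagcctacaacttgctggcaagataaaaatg
Tcrg-C2 exon 2, chr13:19305769-19305798, minus strand: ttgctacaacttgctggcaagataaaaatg
Tcrg-C3 exon 2, chr13:19262644-19262688, plus strand: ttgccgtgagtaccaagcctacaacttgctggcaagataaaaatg
Tcrg-C4 exon 2, chr13:19349536-19349589, plus strand: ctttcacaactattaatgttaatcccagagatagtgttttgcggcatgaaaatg
Tcrg-C4 exon 3, chr13:19350330-19350374, plus strand: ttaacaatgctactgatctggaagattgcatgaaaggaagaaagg
These exons hold 45 bases (15 codons) in Tcrg-C1 and in Tcrg-C3, 30 bases (10 codons) in Tcrg-C2 and 99 bases (33 codons) in Tcrg-C4. Over the coding models, identity to Tcrg-C1 was 97.4% for Tcrg-C2 (13 differing of 503 aligned bases), 96.9% for Tcrg-C3 (16 of 518) and 78.8% for Tcrg-C4 (109 of 515).

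**Figure D1:**
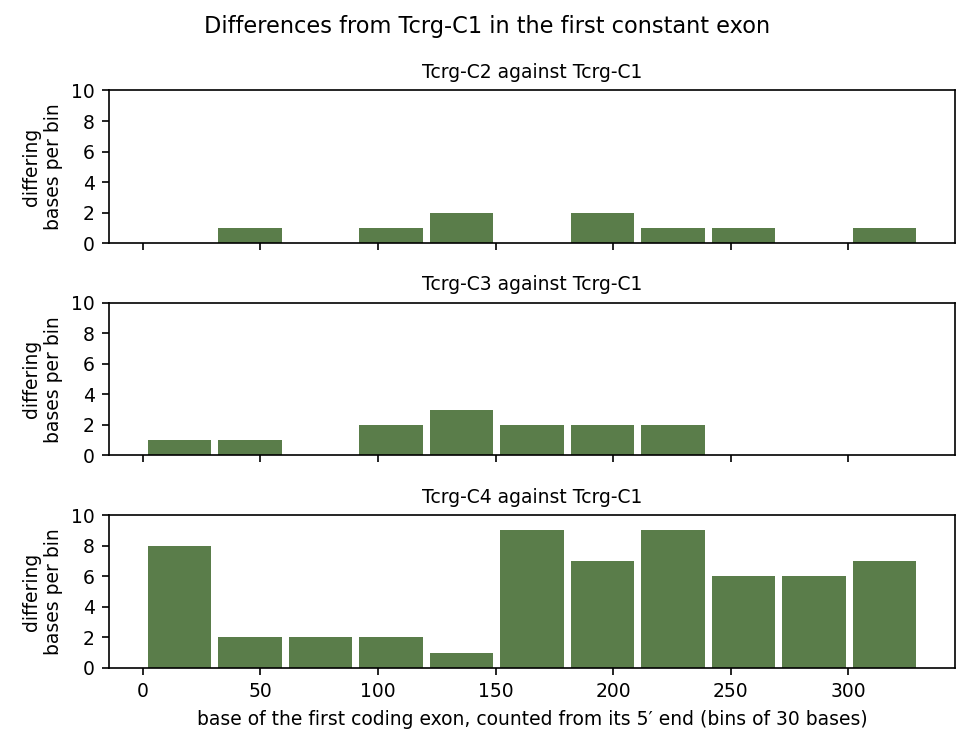
Number of bases (vertical axis) at which Tcrg-C2, Tcrg-C3 and Tcrg-C4 differ from Tcrg-C1 in bins of 30 bases along the first coding exon (horizontal axis, bases from the 5′ end of the 330). Tcrg-C2 and Tcrg-C3 differ at 9 and 13 scattered positions, Tcrg-C4 at 59.

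How far these differences separate reads depends on how much of each fragment was read, and no source used here names the read length. The effective lengths put the mean fragment at 125 nucleotides in replicate 2 and 115 in replicate 1. Windows of these lengths stand for fragments read whole. At 125 nucleotides, 356 of the 394 windows of Tcrg-C1 (90.4%) occurred in no other gamma constant gene, and the 38 others were shared with Tcrg-C3. At 115 nucleotides, 356 of 404 windows (88.1%) were private to Tcrg-C1, and 48 were shared with Tcrg-C3. Tcrg-C2 and Tcrg-C4 shared no window of either length with Tcrg-C1. At 50 nucleotides 275 of 469 windows were private, 63 were shared with Tcrg-C2 and 160 with Tcrg-C3. None of the 469 windows of 50 nucleotides was found, on either strand, in the 141762 annotated transcripts of other genes. These are exact matches of annotated sequence and allow for no sequencing error.

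Counts fell on 1 of the 4 genes, Tcrg-C1. Tcrg-C1 (ENSMUSG00000076749.1, chromosome 13, 19214103 to 19217024, plus strand, GRCm38) had 637 estimated counts in replicate 2 and 896 in replicate 1. Its level was 54.9 TPM in replicate 2 (deposited credibility interval 49.4 to 57.7) and 104 TPM in replicate 1 (94.3 to 108), a mean of 79.7 ± 35.0 TPM (SD, n = 2). TPM is a share of all transcripts, corrected for length, so these levels can be set against those of other genes. Replicate 1 was the higher. TPM was also lower in replicate 2 at the median of genes detected in both libraries, with a log2 ratio of -0.63. As a share of all estimated counts, without correction for length, Tcrg-C1 had 15.7 CPM in replicate 2 (95% Clopper-Pearson interval 14.5 to 17.0) and 28.3 CPM in replicate 1 (26.5 to 30.2).

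The other members were listed at 0 counts in both libraries. For Tcrg-C2 (ENSMUSG00000076752.1, 19304649 to 19307551, minus strand) the credibility interval of TPM ended at 0.264 in replicate 2 and 0.353 in replicate 1. For Tcrg-C3 (ENSMUSG00000091682.1, 19260884 to 19263528, plus strand) it ended at 0.306 in replicate 2 and 0.413 in replicate 1. For Tcrg-C4 (ENSMUSG00000076757.8, 19344558 to 19352756, plus strand) it ended at 0.323 in replicate 2 and 0.441 in replicate 1. The order of the 4 levels is thus Tcrg-C1 above the rest, and the remaining 3 cannot be ranked.

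The fold was taken as the listed TPM of Tcrg-C1 over the higher of 2 limits for the gene at 0. These were 3 counts per library corrected for length and the upper credibility bound. At its listed level Tcrg-C1 was at least 204-fold higher than Tcrg-C2 in replicate 2 and at least 288-fold higher in replicate 1. Against Tcrg-C3 it was at least 179-fold higher in replicate 2 and at least 253-fold higher in replicate 1. Against Tcrg-C4 it was at least 170-fold higher in replicate 2 and at least 237-fold higher in replicate 1. These limits cover counting error and read assignment of the gene at 0 only, and no molecular tags are named in the labels. The error of Tcrg-C1 itself is left out. Its credibility interval began at 49.4 TPM in replicate 2 and 94.3 TPM in replicate 1, so the lowest folds would be smaller.

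The division of shared reads left little room for Tcrg-C3. The posterior mean count of Tcrg-C1 was 636.75 in replicate 2 (posterior SD 0.55) and 895.77 in replicate 1 (0.52). Tcrg-C3 had posterior mean counts of 0.24 in replicate 2 and 0.23 in replicate 1, Tcrg-C2 had 0.01 in replicate 2 and 0 in replicate 1, and Tcrg-C4 had 0 in both. In each library the posterior mean counts of Tcrg-C2 and Tcrg-C3 together were below 1 read, nearly all of it on Tcrg-C3, the gene with which it shares windows of fragment length.

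**Figure D2:**
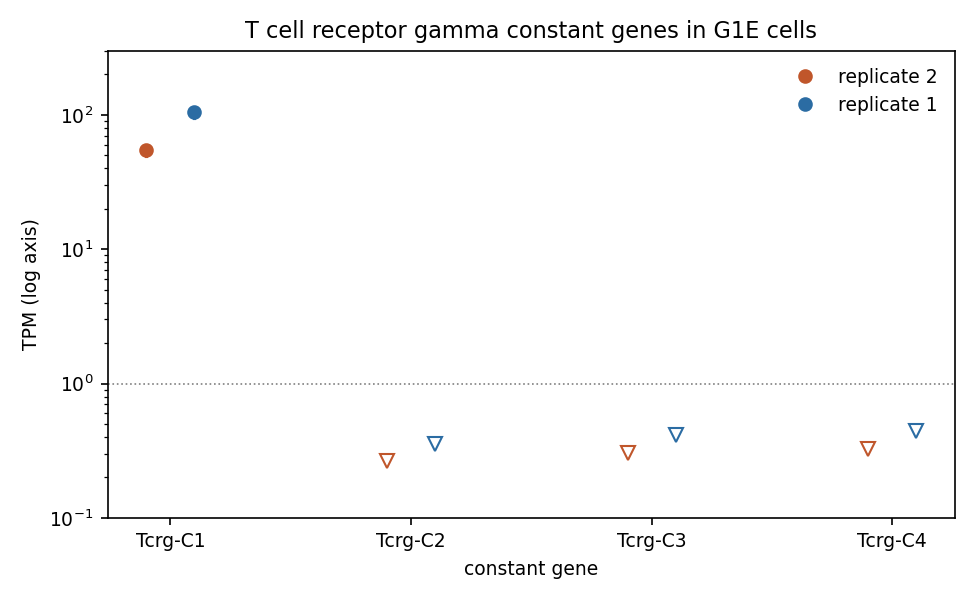
Level in TPM (log axis) of the 4 gamma constant genes in replicate 2 (left of each pair) and replicate 1 (right). Filled points are values, with credibility intervals that lie within the symbols. Open triangles are upper bounds of the credibility interval for genes listed at 0, and the dotted line is 1 TPM. Tcrg-C1 lies at 54.9 TPM in replicate 2 and 104 TPM in replicate 1, and the upper bounds of the others run from 0.264 to 0.441 TPM.

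At transcript level the tables hold 1 transcript each for Tcrg-C1, Tcrg-C2 and Tcrg-C3 and 2 for Tcrg-C4. ENSMUST00000103558.1 carried 100% of Tcrg-C1 in both libraries. The 2 transcripts of Tcrg-C4 (ENSMUST00000103566.5 and ENSMUST00000179181.1) were both at 0. The deposited model of Tcrg-C1 is 518 nucleotides long, which equals the coding exons with the stop codon. The same transcript is 924 nucleotides long in GENCODE M21, so 406 nucleotides of its 3′ untranslated part were outside the model on which these levels rest. Counts on constant exons do not show whether a transcript carried a variable segment.

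Nothing else in the locus was counted. The Tcrg locus spans 174.7 kb (19178024 to 19352756), with 16 annotated genes, of which 12 are in the tables. Tcrg-C1 was the 1 gene of these 12 with any count. All 7 variable genes, Tcrg-V1, Trgv2, Tcrg-V3, Tcrg-V4, Tcrg-V5, Tcrg-V6 and Tcrg-V7, had 0 counts in both libraries. The upper bounds of their credibility intervals ran from 0.340 to 0.582 TPM in replicate 2 and from 0.456 to 0.763 TPM in replicate 1, far below the level of Tcrg-C1. Of 4 joining segments only Trgj4 is in the tables, with an effective length of 0, so no read could be assigned to it. Trgj1, the segment upstream of Tcrg-C1, was not analysed here.

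The genes on either side of the locus were lower than Tcrg-C1 in both libraries. Stard3nl, which encodes a cholesterol-binding protein of late endosomes and is the next coding gene past Tcrg-C4, had 0.88 TPM in replicate 2 and 0.89 TPM in replicate 1. Amph, the gene of the endocytic protein amphiphysin on the other side, had 0.14 TPM in replicate 2 and 0.18 TPM in replicate 1. Vps41, a subunit of the HOPS complex that tethers vesicles to lysosomes, lies beyond Amph and had 10.5 TPM in replicate 2 and 18.3 TPM in replicate 1. Epdr1 and Sfrp4 had 0 counts. Tcrg-C1 thus stood between neighbours under 1 TPM, and the nearest gene with a level of at least 1 TPM in both libraries among these 5 was Vps41.

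**Figure D3:**
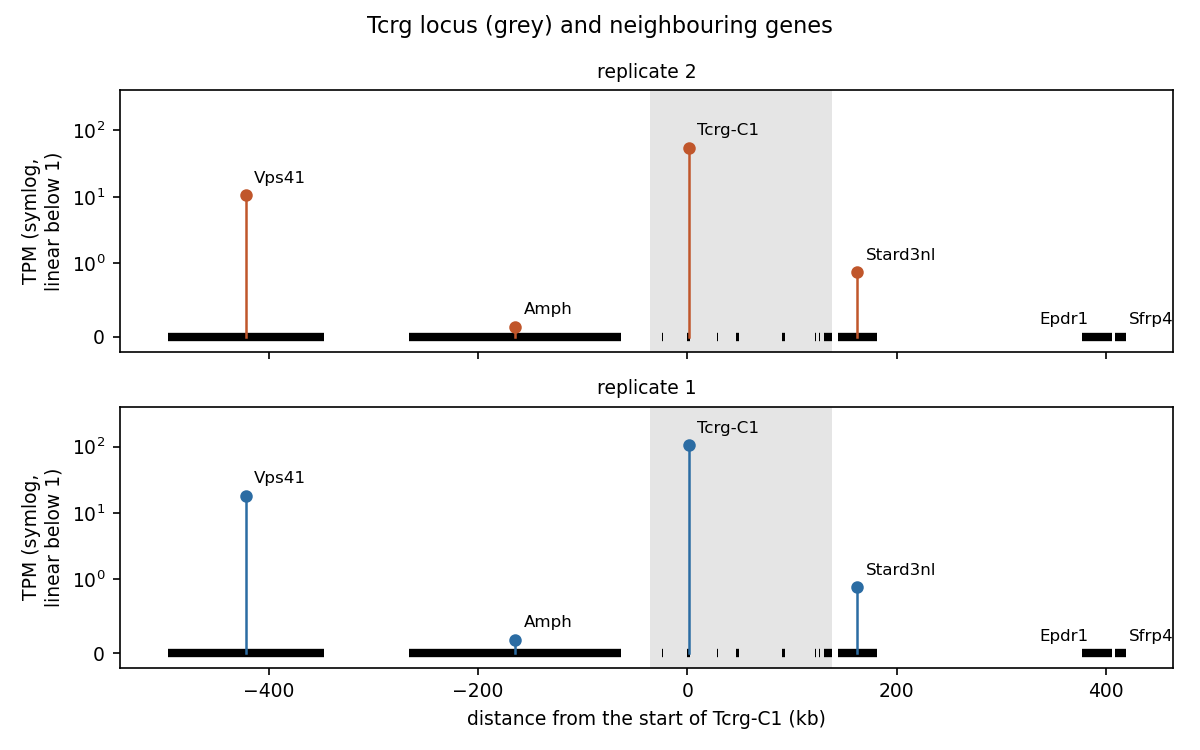
Level in TPM (vertical axis, linear below 1 and logarithmic above) of genes in the Tcrg locus (grey band) and of neighbouring coding genes, against distance from the start of Tcrg-C1 in kb, for replicate 2 (top) and replicate 1 (bottom). Black bars are gene bodies. Tcrg-C1 is the single raised gene in the band, at 54.9 TPM in replicate 2 and 104 TPM in replicate 1.

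The rest of the antigen receptor genes were nearly silent. The tables hold 460 variable, diversity, joining and constant segments of T cell receptors and immunoglobulins, of which 98 diversity and joining segments had an effective length of 0. Counts fell on 4 of the 460. Tcrg-C1 held 96.5% of the counts on all segments in replicate 2 and 98.1% in replicate 1. Igkc, the constant gene of the kappa light chain, had 11 counts in replicate 2 and 7 in replicate 1 (1.72 ± 0.212 TPM, SD, n = 2). Trbv13-2, a variable gene of the beta chain, had 8 counts in replicate 2 (1.26 TPM) and 10 in replicate 1 (2.08 TPM). Like Igkc, it thus reached 1 TPM in both libraries, on few counts. B230359F08Rik, annotated as a variable gene, had 4 counts in replicate 2 and 0 in replicate 1. These last 2 genes were named after their values were seen. Among the 7 constant genes of T cell receptors in the tables, Trac, Trbc1 and Trbc2, which encode the constant parts of the alpha and beta chains, had 0 counts as did the 3 other gamma genes. Trdc, the delta constant gene, was not analysed here.

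Other listed genes of the T cell receptor complex were at or near 0. This list holds no variable genes, so Trbv13-2 is not in it. Of 8 other T cell receptor and CD3 genes measured, 0 reached 1 TPM in both libraries and 7 had 0 counts in both, among them Cd3d, Cd3e and Cd3g, which encode the signalling chains, and Ptcra, the pre-receptor alpha chain. The exception was Cd247, the CD3 zeta chain, with 0.45 TPM in replicate 2 and 0.23 TPM in replicate 1, from 11.15 estimated counts in replicate 2 and 7.33 in replicate 1. The summed level of the 8 genes was 0.45 TPM in replicate 2 and 0.23 TPM in replicate 1.

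Markers of T cells and other lymphocytes were at or near 0 beside Tcrg-C1. Most genes had no counts either. Among all 43346 genes, 13688 had any count in replicate 2 and 13603 in replicate 1. The 9 of 13 at 0 in the T cell lineage list are near that share, so this number alone does not set the list apart. Of 13 T cell lineage genes, 9 had 0 counts in both libraries, including Bcl11b, Zap70, Cd4, Cd8a, Cd5 and Thy1, and the summed level of the 13 was 0.17 TPM in replicate 2 and 1.41 TPM in replicate 1. Lck, a T cell kinase, had 0 TPM in replicate 2 and 0.73 TPM in replicate 1, and Lat, an adaptor of T cell receptor signalling, had 0 TPM in replicate 2 and 0.34 TPM in replicate 1. Of 9 gamma delta T cell genes, 1 was detected. This was Zbtb16, the gene of the transcription factor PLZF, with 5.77 TPM in replicate 2 and 6.97 TPM in replicate 1. Blk, Cd27, Il17a and Tcf7 had 0 counts, and Sox13, a factor of gamma delta T cells, had 3 counts in replicate 2 and 6 in replicate 1. The summed level of these 9 was 5.83 TPM in replicate 2 and 7.06 TPM in replicate 1, nearly all of it Zbtb16.

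Markers of B cells and natural killer cells were also mostly at 0, as were most of all 43346 genes. Any count was found for 13688 of these in replicate 2 and 13603 in replicate 1. Of 10 B cell and immunoglobulin genes, 9 had 0 counts, including Cd79a, Cd79b and Ighm, and Igkc was the exception. Of 8 natural killer and innate lymphoid genes, 7 had 0 counts, and Gzmb, the protease granzyme B, had 5.81 TPM in replicate 2 and 9.43 TPM in replicate 1. All 6 erythroid identity genes, Kit, Gata2, Gfi1b, Klf1, Tfrc and Rhag, were detected. In RNA from many cells, a low level in every cell and a high level in few cells cannot be told apart. With the defining T cell markers Cd3d, Cd3e, Cd3g, Trac, Trbc1 and Trbc2 at 0 counts, Tcrg-C1 had 637 counts in replicate 2 and 896 in replicate 1.

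The enzymes that cut receptor genes had 0 counts, whereas most genes listed for joining the ends were detected. Rag1 and Rag2, the recombinase, and Dntt, which adds bases at the junctions, had 0 counts in both libraries. Among 21461 nuclear protein-coding genes, 8474 reached 1 TPM in replicate 2 and 8797 in replicate 1. Of the 9 recombination genes 5 were detected. These were Xrcc5 (14.6 ± 4.52 TPM), Xrcc6 (7.37 ± 2.83 TPM), Prkdc (8.02 ± 1.90 TPM), Dclre1c (9.31 ± 2.64 TPM) and Xrcc4 (2.94 ± 0.792 TPM, SD, n = 2 each), which serve general repair of double-strand breaks in all cells. Lig4, the ligase of the same pathway, had 0.89 TPM in replicate 2 and 1.00 TPM in replicate 1.

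In T cell progenitors, transcription of the gamma locus is known to depend on interleukin-7 receptor signalling through STAT5 and on RUNX, MYB and E protein factors. Of 16 genes listed for this signalling and for these and other T cell factors, 11 were detected and 5 had 0 counts. Beside this, 8474 of 21461 nuclear protein-coding genes reached 1 TPM in replicate 2 and 8797 in replicate 1. Il7r, the alpha chain of the interleukin-7 receptor, had 0 counts, as had Runx3, Tcf7, Lef1 and Bcl11b. Il2rg, the shared receptor chain, had 2.52 TPM in replicate 2 and 2.42 TPM in replicate 1. Stat5a had 21.7 TPM in replicate 2 and 33.7 TPM in replicate 1, and Stat5b had 12.5 TPM in replicate 2 and 19.1 TPM in replicate 1. Runx1 had 27.8 TPM in replicate 2 and 42.8 TPM in replicate 1, and its partner Cbfb had 11.0 TPM in replicate 2 and 17.7 TPM in replicate 1. Myb (63.1 ± 23.3 TPM), Tcf12 (60.1 ± 22.8 TPM) and Tcf3 (28.5 ± 11.5 TPM) were high, and Gata3 was low at 2.91 ± 1.55 TPM (SD, n = 2 each). Jak1 had 19.2 ± 2.74 TPM and Jak3 had 5.34 ± 1.90 TPM. These levels are a description of erythroid progenitors, and their relation to Tcrg-C1 was not tested.

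**Figure D4:**
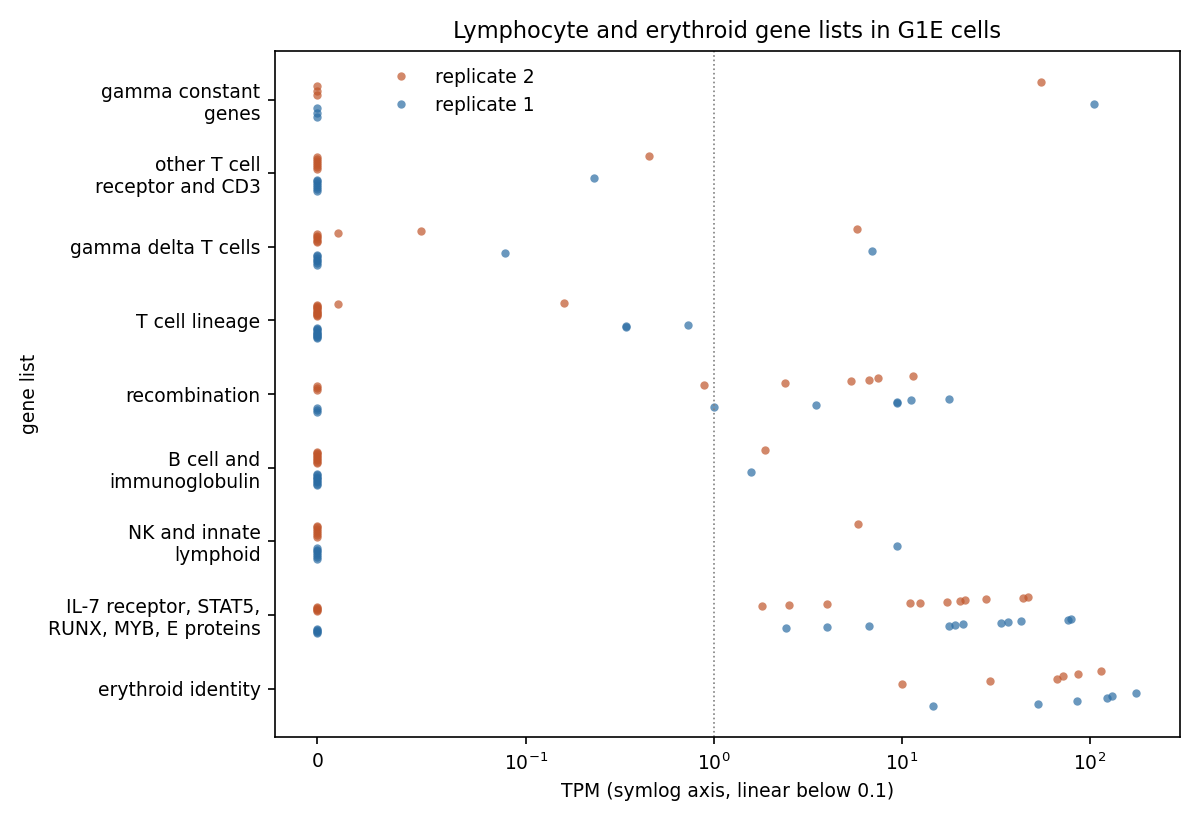
Level in TPM (horizontal axis, linear below 0.1 and logarithmic above) of each gene in the gamma constant list and 8 other lists, for replicate 2 (upper row of each list) and replicate 1 (lower row). The dotted line is 1 TPM. Tcrg-C1 lies at 54.9 TPM in replicate 2 and 104 TPM in replicate 1, within the range of the erythroid identity genes. The genes in the list of other T cell receptor and CD3 genes, which holds no variable genes, lie at 0.45 TPM or below.

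Tcrg-C1 ranked above most coding genes of these cells. Of 21461 nuclear protein-coding genes, 332 had a higher TPM in replicate 2 and 270 in replicate 1. Among coding genes at 1 TPM or more in the given library, the median was 5.99 TPM in replicate 2 and 8.67 TPM in replicate 1. Tcrg-C1 was 1.86-fold the level of Gata2, a GATA factor of progenitors, in replicate 2 and 1.98-fold in replicate 1. It was 5.48-fold the level of Klf1, an erythroid transcription factor, in replicate 2 and 7.17-fold in replicate 1. Kit, the stem cell factor receptor, was higher, and Tcrg-C1 was at 0.480 of its level in replicate 2 and 0.597 in replicate 1. Against Tfrc, the transferrin receptor, the order of the pair differed between the libraries, with ratios of 0.820 in replicate 2 and 1.23 in replicate 1. The coding genes nearest to Tcrg-C1 over the 2 libraries, by Euclidean distance of log2(TPM + 1), were Ccna2 (distance 0.01), Zfr (0.02), Golph3 (0.04), Msn (0.07) and Eif5 (0.11), and 28 genes lay within 0.2. With 2 libraries this measure is little more than a match in level.

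After TMM scaling, which sets most genes level between the libraries, Tcrg-C1 was at 0.798 in replicate 2 relative to replicate 1 (95% interval 0.720 to 0.885, for counting error in 1 library each), a log2 ratio of -0.32. Of the tested genes, 15.2% had a ratio as low or lower. Since these are the counts by which the family was chosen, no p is given for this ratio. In an exact binomial comparison of the libraries over 11902 genes with at least 10 counts, 5.12% were higher and 2.2% lower in replicate 2 past an adjusted p of 0.05 and 2-fold. The ratio of 0.798 lies within 2-fold, so Tcrg-C1 could be in neither group. It was the 1 member of 4 with enough counts to enter. Scaled to total counts, its ratio was 0.554, and 396 genes were higher and 1021 lower in replicate 2. Scaled to spike-ins, its ratio was 0.0353, and 36 genes were higher and 11608 lower in replicate 2. The spike-ins had 10351 counts in replicate 2 and 514 in replicate 1. The deposited TPM had a log2 ratio of -0.93 for Tcrg-C1, against a median of -0.63 over genes detected in both libraries. Gm42418, a non-coding gene that overlaps a ribosomal RNA repeat, and the mitochondrial ribosomal RNAs together took 75.7% of counts in replicate 2 and 67.2% in replicate 1, and their part in the shift of TPM was not tested.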

How the data were processed

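Total RNA of 2 G1E replicates was sequenced. For each gene and transcript the authors deposited an estimated count (expected count, not normalised) and a posterior mean count, per the file headers. The authors' TPM values come as posterior mean and as maximum-likelihood estimates, per the file headers, with bounds of a credibility interval as other columns. FPKM values and the percent of a gene's TPM that falls on a transcript were also deposited by the authors. Per the deposited records, the tables were made on mm10 with GENCODE M4 from transcriptome alignments. No source used here names the quantifier.

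GENCODE M21 (GRCm38) supplied names and coordinates by identifier without version, for 42462 of 43346 genes. Depth was 40587256 estimated gene counts in replicate 2 and 31649361 in replicate 1. The limit that a count of 0 allows, 3 counts, is 0.0739 CPM in replicate 2 and 0.0948 CPM in replicate 1. A gene was detected at 1 TPM or more in both libraries. The libraries were compared gene by gene with an exact binomial test on rounded counts against the ratio of TMM effective sizes (edgeR 4.0.16, R 4.3.3). It ran over genes whose 2 counts summed to 10 or more, with calls at an adjusted p under 0.05 and 2-fold. It was run on simulated counts that held counting error alone, so its calls under wider spread between libraries were not tested. Taken as 1 group, the libraries had a common coefficient of variation of 26.3% in edgeR. Entries for spike-ins and those named by numbers stayed out. Likeness used a pseudocount of 1 TPM. Biopython 1.88 aligned the sequences. Python 3.11.15 with NumPy 2.4.6, SciPy 1.17.1 and pandas 2.3.3, matplotlib 3.10.9, and DESeq2 1.42.0 were used besides.

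The members and gene lists were chosen with earlier results of these data known. The text names the members, locus genes with counts, 3 coding neighbours on each side, list genes of at least 1 TPM in both libraries or else the highest, and the 5 nearest coding genes. List and locus genes named at 0 counts were added to show absence. Some genes that meet these criteria are not reported here. Trdc, Scart1, Iglc1 and Iglc3 are not analysed here. Other scalings, filters and units, a negative binomial test, and single libraries were the alternatives.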

Additional observations from a re-analysis of the deposited data

How the results depend on the processing

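The mean level of Tcrg-C1 was 79.7 TPM, 22.0 as CPM and 468 when TPM was rescaled over nuclear protein-coding and T cell receptor constant genes, units in which the value must differ. It was 77.2 as posterior mean TPM and 54.9 as FPKM, and 54.9 to 104 TPM with either library left out. Its share of the gamma constant TPM was 100% from TPM, FPKM and counts and with either library left out, and 99.5% from posterior mean TPM, in which the 3 other members have values above 0. The number of listed other T cell receptor and CD3 genes detected was 0, and 1 (Cd247) at a TPM of 0.1 or with any count in both libraries. The ratio of replicate 2 over replicate 1 stayed under 1 and within 2-fold, from 0.526 to 0.798, in every setting but scaling to spike-ins. There it was 0.0353, with 10351 spike-in counts in replicate 2 and 514 in replicate 1. Genes called between the libraries numbered 871, but 1417 with total counts (396 higher and 1021 lower in replicate 2), 11644 with spike-ins (36 and 11608), 443 with at least 50 counts (360 and 83) and 296 in the negative binomial test (263 and 33). With 50 counts fewer genes were tested, and the spike-in scaling divides by those spike-in counts. The negative binomial test allows for a common coefficient of variation of 26.3% between the libraries, which the binomial test leaves out. For scaling to total counts the cause was not tested. Of 28 other levels, 24 moved by less than 1 SD with posterior mean TPM, chosen after seeing the data. The exceptions were Tcrg-C2, Tcrg-C3 and Tcrg-C4, which reached 0.105, 0.120 and 0.165 TPM, and Il2rg, at 2.69 TPM. With 1 library there is no ratio, so no library could be left out of it. No paired analysis was possible because there is 1 group.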
